A study of Mus musculus with 2 samples.

Results

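The 34 genes described here encode the enzymes of glycolysis, the regulators of its early steps and the membrane carriers for glucose, fructose and lactate. They were chosen by symbol. Every symbol matched 1 row of the deposited gene tables, so the list covers 34 of 43346 Ensembl genes, with 230 annotated transcripts. The tissue was liver of B6NCrl mouse embryos at embryonic day 16.5, healthy and untreated. Total RNA above 200 nt was sequenced in 2 libraries, biological replicates 1 and 2, which form 1 group. Each library came from pooled livers of both sexes, with 41 embryos in the replicate 2 pool and no number given for replicate 1, and both carry the same donor identifier, so the spread between them may be partly technical. The libraries held 44477766 expected counts in replicate 1 and 48820712 in replicate 2, where an expected count is an estimated number of reads. The design has no second condition and no test, so values are given per library or as the mean ± SD of both (n = 2).

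Glycolysis splits glucose into pyruvate, which is reduced to lactate or burned in mitochondria. Several steps are served by isozymes, products of related genes that differ in kinetics and in the tissue that uses them. Hepatocytes of adult liver are known for a set suited to high glucose, among them the carrier Slc2a2, the regulator Gckr and the liver form of pyruvate kinase. Red cells have no mitochondria once mature and live on glycolysis, and the fetal liver is a main site of red cell formation before birth. In tissue RNA of this kind, fewer cells of a type and less RNA per cell cannot be told apart.

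The tissue label was checked against marker genes. All 10 hepatocyte markers and all 9 erythroid markers found in the tables reached 1 TPM in each library. Afp, the fetal plasma protein, had 13667 and 13629 TPM and the red cell anion exchanger Slc4a1 had 946 and 999 TPM in replicates 1 and 2. TPM is the abundance of a gene's transcripts relative to all transcripts of its library, corrected for length, so levels can be compared between genes. Markers of neutrophils, macrophages, endothelium and megakaryocytes were also present, at 1 TPM or more for all 22 genes of those lists. That level is a low bar, which 52.2% of protein-coding genes reached in both libraries. It was also reached by 7 of 8 skeletal muscle, 2 of 4 pancreas, 2 of 4 stomach and gut and 1 of 4 cardiac muscle markers. Of the 6 neuronal and 4 kidney markers 0 reached it in both libraries.

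Most of the list was expressed. In both libraries 33 of the 34 genes reached 1 TPM, against 27.9% of all Ensembl genes and 52.2% of protein-coding genes. A level of 10 TPM was reached by 25 of them, against 13.6% and 26.4%, and 100 TPM by 11, against 2.12% and 3.98%. Their median was 30.9 TPM in replicate 1 and 32.1 TPM in replicate 2, whereas the median of the 11201 expressed protein-coding genes was 10.7 and 11.0 TPM. Together they held 0.590% ± 0.0201 of all TPM (SD, n = 2), and Ldha alone held 31.2% of that. Rescaling TPM over nuclear genes outside the globins, which leaves out mitochondrial and globin transcripts together, put the median of the list at 53.6 TPM.

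**Figure D1:**
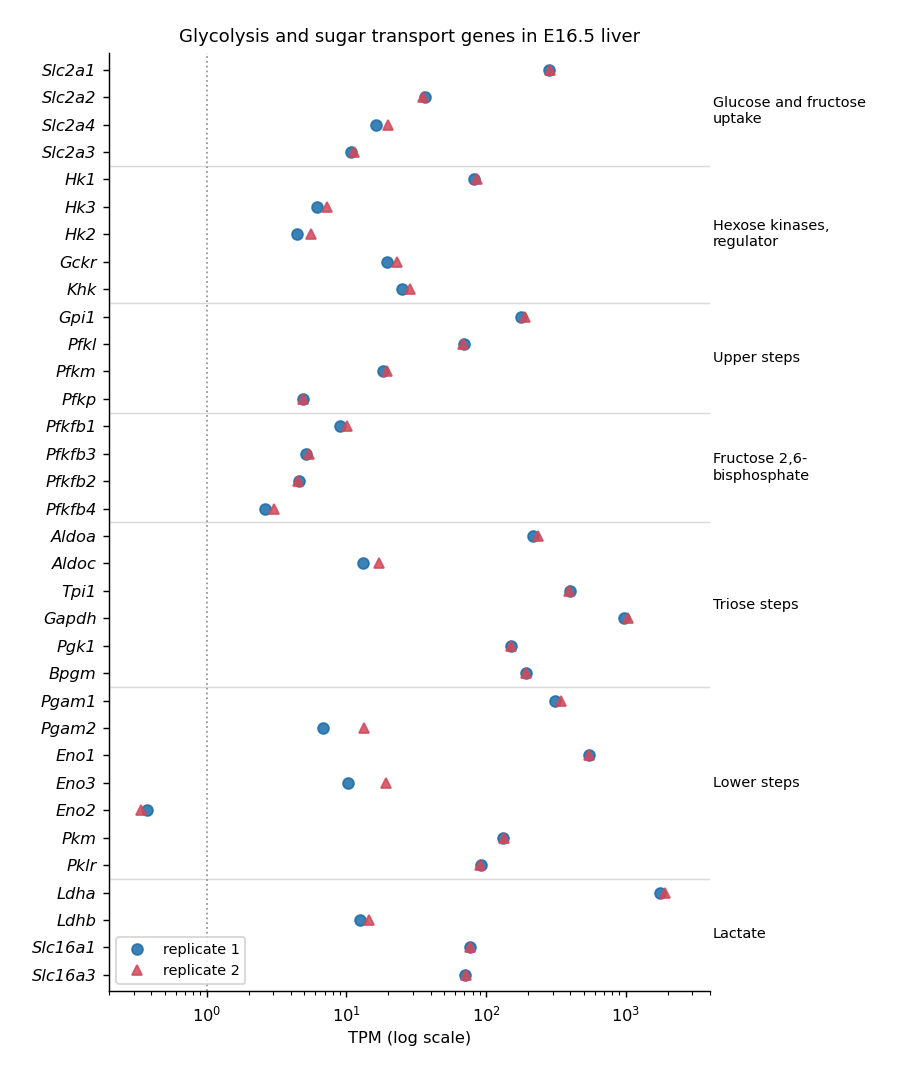
TPM of the 34 genes on a log axis, with circles for replicate 1 and triangles for replicate 2, grouped by step from sugar uptake at the top to lactate at the bottom. The dotted line marks 1 TPM. Ldha stood at 1774 and 1903 TPM and Eno2 at 0.370 and 0.340 TPM, and for most genes the symbols of both libraries overlap, with Pgam2 and Eno3 the widest apart.

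Among the glucose carriers, the level of Slc2a1 was far above the others. Slc2a1, which encodes the basal glucose carrier of red cell precursors and many dividing cells, had 284 TPM in replicate 1 and 286 TPM in replicate 2. It lies on chromosome 4, 119108711 to 119137983, plus strand. Slc2a2, the low-affinity carrier of hepatocytes, had 36.8 and 35.5 TPM, so Slc2a1 exceeded it 7.88 ± 0.224 times (SD, n = 2). Slc2a4, the insulin-responsive carrier of muscle and fat, had 16.2 and 19.7 TPM, and its intervals, the ranges the authors deposited for each TPM, did not overlap between the libraries. Slc2a3, the high-affinity carrier known from neurons and placenta, had 10.8 and 11.3 TPM. Slc2a1 thus held 81.4% ± 0.410 of the summed TPM of the 4 carriers, and Slc2a2 10.3% ± 0.346. Counting 7 further carriers of the family lowered the share of Slc2a1 to 78.8%; the highest of those was Slc2a8 at 6.90 and 7.66 TPM. The fructose carrier Slc2a5 had 0.250 and 0.190 TPM. Slc2a3 shares near-identical sequence with Gm37750, a model at 3.17 and 6.60 TPM, and Slc2a3 with that copy would be 44.2% higher. The expected counts of Slc2a3, 1627 in replicate 1 and 1686 in replicate 2, were whole numbers. They thus gave no sign of reads divided between the pair. Whether each read was given to the right gene of the pair was not tested. Slc2a3-202, which starts far upstream, held 13.3% ± 6.49 of the TPM of Slc2a3, but 1.98% of its expected counts, and Slc2a3-201 held 85.9% ± 6.01 of the TPM.

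Glucose is trapped in the cell by hexokinases. Hk1, the hexokinase of red cells and brain, had 82.5 TPM in replicate 1 and 86.0 TPM in replicate 2, or 87.8% ± 1.19 of the summed TPM of Hk1, Hk2 and Hk3. Hk2, the insulin-responsive form of muscle, had 4.42 and 5.61 TPM, and Hk3, known from myeloid cells, had 6.12 and 7.26 TPM. Hk1 was above Hk2 by 17.0 ± 2.36 times (SD, n = 2), and both libraries gave the same leading gene. For Hk2 a noncoding transcript, Hk2-202, held 53.9% ± 5.54 of the TPM, which left 2.21 and 2.37 TPM on its protein-coding model Hk2-201. On expected counts, which are not corrected for length, Hk2-202 held 9.76% and Hk2-201 90.2%. Gckr, which encodes a regulator of glucose phosphorylation in hepatocytes, had 19.4 and 22.9 TPM, with intervals that did not overlap. Hkdc1, a hexokinase relative, had 9.09 and 12.3 TPM and so stood above Hk2. With Hkdc1 in the sum, the share of Hk1 was 79.1%.

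Hk1 transcripts began at several annotated starts on chromosome 10, minus strand. Hk1-202, which starts at 62340542, had 40.2 and 41.2 TPM and held 48.3% ± 0.610 of the gene. Hk1-201, which starts further upstream at 62358362, had 17.0 and 17.3 TPM, or 20.4% ± 0.344. A short model of 896 nt, Hk1-212, had 15.0 and 15.8 TPM, or 18.3% ± 0.136, but only 4.50% of the expected counts of Hk1. The start between 62342699 and 62342722, which Hk1-205 leads at 9.90 and 10.3 TPM, held 12.5% ± 0.0870. On TPM the order of the starts was the same in both libraries, but it depended on the scale. On expected counts Hk1-202 held 62.3%, Hk1-201 22.2% and the start that Hk1-205 leads 10.8%, which put that start above Hk1-212. On protein-coding transcripts of 1000 nt or more Hk1-202 held 59.8%. The first exon of Hk1-202 overlaps the antisense gene Hk1os, at 3.38 and 3.29 TPM, and since no step that keeps the strand is named in the labels, reads of the pair cannot be told apart there.

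Khk encodes ketohexokinase, which phosphorylates fructose, and had 25.1 and 28.6 TPM. Its leading transcript differed between the libraries: Khk-201 with 10.7 TPM in replicate 1, and in replicate 2 ENSMUST00000133121, a model of 544 nt with 12 TPM. This held on TPM only: by expected counts Khk-201 led in both libraries, with 611 and 613 against 189 and 242. Of the 4 deposited Khk transcripts, 3 are not in the later annotation used for biotypes, and the known protein-coding model held 38.3% of the gene, so which Khk enzyme form the RNA encodes cannot be read from these tables.

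In the upper steps the liver-type phosphofructokinase led. Gpi1, which converts glucose 6-phosphate to fructose 6-phosphate, had 178 and 191 TPM. Pfkl, the liver subunit of phosphofructokinase, had 69.0 and 68.4 TPM and held 74.3% ± 0.880 of the 3 subunit genes. Pfkm, the muscle subunit, had 18.2 and 19.5 TPM, and Pfkp, the platelet subunit, 4.86 and 4.89 TPM. Pfkl stood 3.65 ± 0.201 times above Pfkm. Pfkm-202, from the upstream of its annotated starts, held 86.4% ± 0.461 of Pfkm, and Pfkm-201 held 13.6%.

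The 4 PFKFB genes encode bifunctional enzymes that make and break down fructose 2,6-bisphosphate, an activator of phosphofructokinase. All were low, between 2.59 and 10.1 TPM. Pfkfb1, the liver and muscle form, had 9.05 and 10.1 TPM, or 43.2% ± 1.19 of the sum. Pfkfb3, the form known from proliferating and hypoxic cells, had 5.14 and 5.37 TPM, Pfkfb2, the heart form, 4.61 and 4.48 TPM, and Pfkfb4, the testis form, 2.59 and 3.02 TPM. This order depended on the scale: on expected counts, which are not corrected for length, Pfkfb1 held 30.3% and no longer led. Its TPM was divided among 3 starts, of which Pfkfb1-202 held 40.4% ± 8.89, Pfkfb1-201 37.1% ± 7.46 and the most upstream pair of models 17.1% ± 1.29. Pfkfb1-201 was the higher in replicate 1 and Pfkfb1-202 in replicate 2. Pfkfb2 was led by Pfkfb2-206, a model annotated for nonsense-mediated decay, with 49.7% ± 0.861 of TPM. On expected counts that model held 17.9%, behind the start at 130715734 to 130715814 on chromosome 1 with 47.0%. For Pfkfb3 the start used by 12 models held 55.2% ± 5.89 of TPM and the upstream Pfkfb3-220 held 32.8% ± 10.4, but on expected counts the order turned, at 45.0% and 53.0%.

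The triose steps were carried by abundant transcripts. Aldoa, the aldolase of muscle and red cells, had 217 and 234 TPM, and Aldoc, the brain form, 13.2 and 17.0 TPM. Aldoa held 93.7% ± 0.755 of this pair, 15.1 ± 1.94 times the level of Aldoc, a share that covers the listed genes and not the whole step. Tpi1, which interconverts the triose phosphates, had 398 and 392 TPM. Gapdh, which oxidises glyceraldehyde 3-phosphate, had 976 and 1033 TPM, and Pgk1, which makes the first ATP of the payoff phase, had 152 TPM in each library.

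The level of Gapdh needs care. Its leading model, Gapdh-208, is a processed transcript of 483 nt with 554 and 560 TPM, or 55.5% ± 1.79 of the gene. The protein-coding models held 43.0%, led by Gapdh-203 at 404 and 446 TPM. By expected counts the order was reversed, with 22452 and 26799 on Gapdh-203 and 8958 and 9789 on Gapdh-208. Gapdh was also the member with the most near-identical copies, 181 genes at 55.5 and 68.5 TPM together. Pgk1 shares sequence with the pseudogene Pgk1-rs7, at 25.8 and 19.4 TPM, and Pgk1 with its copies would be 15.1% higher. Near-identical copies were found for 10 genes of the list in all, and they came to 5.75% of Pgam1, 2.23% of Eno1 and 0.211% of Ldha.

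On gene TPM, Bpgm stood above Pgk1. It encodes bisphosphoglycerate mutase, which in red cells makes 2,3-bisphosphoglycerate, the ligand that lowers the oxygen affinity of adult haemoglobin. Bpgm had 194 and 192 TPM, 1.27 ± 0.0114 times the level of Pgk1 (SD, n = 2), and ranked 436 of 11201 expressed protein-coding genes. On this scale the difference was larger than the spread between the libraries for this pair of genes. Bpgm-201 held 81.7% ± 0.812 of the TPM of Bpgm and Bpgm-205, a model of 596 nt from a start further downstream, 14.6% ± 1.13. On expected counts they held 92.7% and 3.87%. The size of the lead depended on the models and copies counted. Bpgm-201 alone had 157 and 158 TPM, close to the 152 TPM of Pgk1-201 in each library. Pgk1 with its near-identical copies had a mean of 175 TPM, under the 193 TPM of Bpgm but above Bpgm-201.

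At the mutase and enolase steps a single gene carried nearly all of the signal. Pgam1, the phosphoglycerate mutase of most tissues, had 310 and 342 TPM and held 97.1% ± 1.14 of the step. Eno1, the enolase of most tissues, had 546 and 548 TPM and held 97.3% ± 1.11. With the relatives Eno4 and Eno1b in the sum its share was 96.9%, and Eno1b, the higher of these, had 2.05 and 2.98 TPM. Pgam2, the muscle mutase, had 6.80 and 13.3 TPM, and Eno3, the muscle enolase, 10.2 and 19.3 TPM. Eno2, the neuronal enolase, was the 1 gene of the list under 1 TPM, with 0.370 and 0.340 TPM on 26 and 20 expected counts. The deposited interval of Eno2 lay above its TPM in both libraries, and its posterior mean TPM, a second estimate in the tables, was 2.61 times as high. For some abundant genes the interval lay below the TPM, as for Ldha, with 1774 TPM and an interval of 1740 to 1761 in replicate 1. The few reads of Eno2 were spread over several starts whose order differed between the libraries. None of the 6 neuronal markers reached 1 TPM in both libraries.

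**Figure D2:**
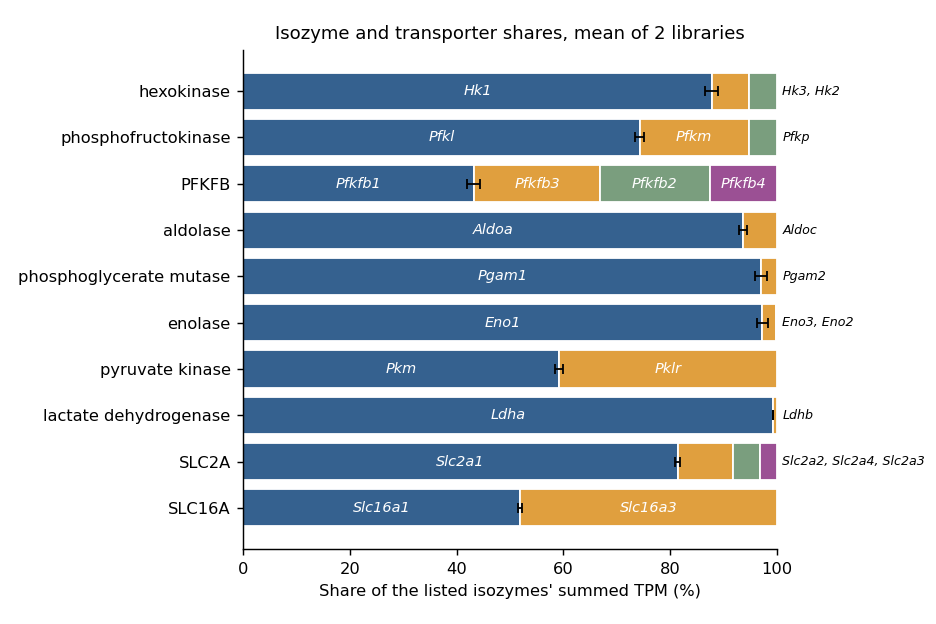
Share of the summed TPM of the listed isozymes or carriers, in percent, for each step. Bars are means of 2 libraries, error bars are the SD of the leading share, and genes under 12% are named at the right. Ldha, Eno1, Pgam1 and Aldoa held over 90% of the listed genes of their step, while Pkm and Pklr, and Slc16a1 and Slc16a3, shared theirs.

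Pyruvate kinase was divided between its 2 genes. Pkm, expressed in most tissues other than adult hepatocytes and red cells, had 132 TPM in replicate 1 and 134 TPM in replicate 2. Pklr, the gene of the liver and red cell forms, had 92.6 and 90.6 TPM. Pkm held 59.2% ± 0.745 of the sum and was 1.45 ± 0.0448 times as high as Pklr. The order was the same in both libraries.

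Pklr has 2 promoters. The upstream start gives the R transcript of red cell precursors and the downstream start the L transcript of hepatocytes, with different first exons. The gene lies on chromosome 3, 89136142 to 89146784, plus strand. Pklr-201 begins at 89136142 and Pklr-202 begins 430 nt further on, at 89136572. The bases before each start are shown because the share of each start is the main transcript result. They are RefSeq promoter windows of GRCm38.p6, the plus strand of chr3:89135892-89136141 for the upstream and chr3:89136373-89136571 for the downstream start, up to the base before the start annotated by GENCODE. Capitals mark letters found by a search of both strands.
Before the upstream start: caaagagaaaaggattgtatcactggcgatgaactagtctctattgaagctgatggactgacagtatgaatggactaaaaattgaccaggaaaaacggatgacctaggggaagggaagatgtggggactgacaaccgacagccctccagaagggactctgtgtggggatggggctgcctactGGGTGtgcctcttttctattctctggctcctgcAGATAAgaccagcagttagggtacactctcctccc
Before the downstream start: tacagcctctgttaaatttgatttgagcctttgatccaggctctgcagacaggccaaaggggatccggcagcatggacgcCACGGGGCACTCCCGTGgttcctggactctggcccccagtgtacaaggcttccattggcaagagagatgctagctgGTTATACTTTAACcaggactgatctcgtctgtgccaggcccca

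The letters searched were AGATAA or TGATAA, bound by GATA factors, and CACCC, bound by KLF factors, both known before the red cell start from human and rat. For the liver start they were the paired E boxes of the carbohydrate response element known from rat, CACGGG and CCCGTG with any 5 bases between them, and the HNF1 pattern, GTTA and TTAAC with any 4 bases between them. They were picked with this gene's literature in mind, so a match is a description only. The upstream window held 1 AGATAA and 1 CACCC, read as GGGTG on the printed strand, and neither of the hepatocyte patterns. In windows of that length over all RefSeq promoters, 16.6% held a GATA match and 52% a CACCC match. The carbohydrate response and HNF1 patterns were in 0.00304% and 0.17% of them, so nearly all windows lack both. The downstream window held 1 carbohydrate response pattern and 1 HNF1 pattern and no GATA or CACCC letters. The carbohydrate response and HNF1 patterns occurred in 0.00304% and 0.116% of 32851 windows of its length, this one included. GATA letters were in 14.1% and CACCC in 44.2% of those windows, so most windows lack each of them too. No match overlapped another.

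Both starts were in use. The upstream start held 61.1% of the Pklr TPM in replicate 1 and 54.2% in replicate 2, a mean of 57.7% ± 4.89 (SD, n = 2). The downstream start held 38.9% and 45.8%, a mean of 42.3% ± 4.89. Part of the upstream share came from Pklr-205, a short noncoding model of 345 nt with 14.7 and 13.2 TPM. On protein-coding transcripts alone the upstream share was 53.9% in replicate 1 and 46.5% in replicate 2, and on expected counts 54.8% and 48.0%. The upstream start thus led in both libraries on the TPM of all transcripts, whereas on the other scales it led in replicate 1 and the downstream start in replicate 2, so the order of the starts depended on the scale.

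The full-length models show the same turn. Pklr-201 had 41.9 TPM in replicate 1, with an interval of 36.8 to 45.9, and 35.9 TPM in replicate 2. Pklr-202 had 34 and 38.4 TPM, with an interval of 33.2 to 41.9 in replicate 2. Each library thus had another leading transcript, while the intervals of each transcript overlapped between the libraries. The models also differ at the other end, where Pklr-202 runs 190 nt further, so the division of reads rests on the 3′ end as well as on first exons of 141 nt in Pklr-201 and 66 nt in Pklr-202. The downstream models Pklr-203 and Pklr-204 had at most 2.97 and 0.160 TPM. Hcn3, which overlaps the end of the gene on the other strand, stood under 1 TPM. The summed level of the erythroid markers was 4241 TPM in replicate 1 and 4300 TPM in replicate 2, and that of the hepatocyte markers 41611 and 44461 TPM; their part in the division of the starts was not tested.

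Pkm transcripts carried the M2 exon almost throughout. The M1 and M2 forms differ by 1 exon of 167 nt, the ninth of each model, used as alternatives. M2 is the form of embryonic and dividing cells and M1 that of adult muscle and brain. Pkm-201, with the M2 exon at chromosome 9, 59675568 to 59675734, held 93.7% of the Pkm TPM in replicate 1 and 91.5% in replicate 2, a mean of 92.6% ± 1.61. Pkm-202, with the M1 exon at 59675029 to 59675195, held 6.26% and 8.53%. The difference between the forms was far larger than the spread. The exon sequences are shown because reads within them tell the forms apart. They are read from GENCODE M21 transcripts on GRCm38, plus strand, and capitals mark the 64 positions at which they differ, which leaves 61.7% identity.
Pkm M2 exon: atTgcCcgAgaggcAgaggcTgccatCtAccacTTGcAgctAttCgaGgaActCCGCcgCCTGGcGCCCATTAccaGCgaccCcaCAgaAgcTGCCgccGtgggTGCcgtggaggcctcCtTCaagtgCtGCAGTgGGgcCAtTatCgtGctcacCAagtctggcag
Pkm M1 exon: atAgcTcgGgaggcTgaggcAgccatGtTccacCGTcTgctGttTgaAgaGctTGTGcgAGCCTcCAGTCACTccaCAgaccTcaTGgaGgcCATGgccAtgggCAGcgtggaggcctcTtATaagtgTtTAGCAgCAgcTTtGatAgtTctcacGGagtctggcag

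**Figure D3:**
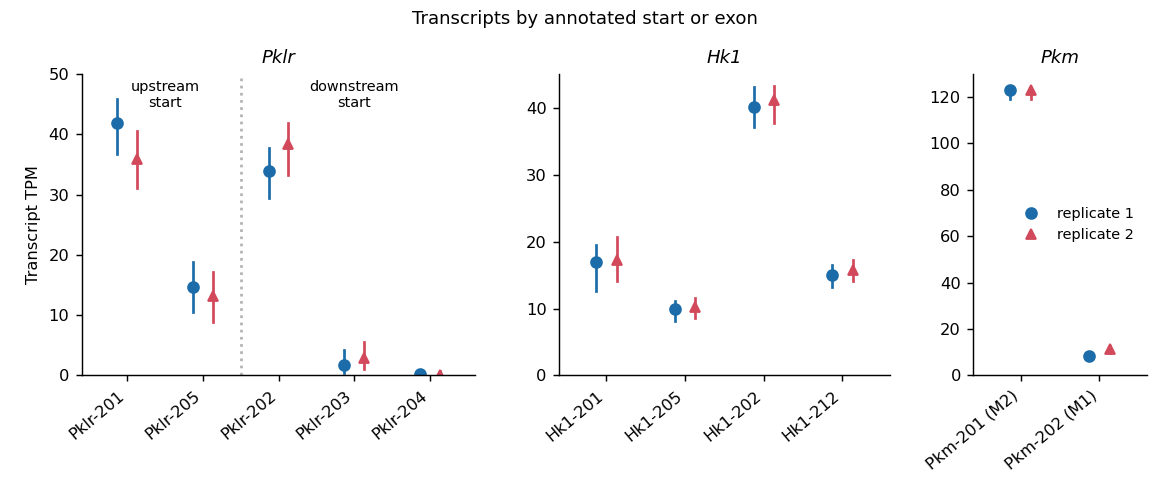
Transcript TPM of Pklr, Hk1 and Pkm, with circles for replicate 1, triangles for replicate 2 and vertical lines for the deposited intervals. Pklr transcripts are ordered from the upstream to the downstream start. Pklr-201 is the higher of the full-length Pklr models in replicate 1 and Pklr-202 in replicate 2, whereas Hk1-202 and Pkm-201 lead in both libraries.

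Pyruvate is turned into lactate by lactate dehydrogenase, a tetramer of A and B chains. Ldha was the highest gene of the list at 1774 TPM in replicate 1 and 1903 TPM in replicate 2, a mean of 1838 ± 91.2 TPM, and ranked 25 of 11201 expressed protein-coding genes. It lies on chromosome 7, 46841475 to 46855627, plus strand. Ldhb, the chain of heart and other aerobic tissues, had 12.5 and 14.5 TPM. Ldha exceeded Ldhb 137 ± 7.51 times and held 99.3% ± 0.0396 of the pair.

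The lactate carriers were nearly equal. Slc16a1, a carrier of lactate and other monocarboxylates in either direction, had 77.0 and 76.3 TPM, and Slc16a3, the exporter known from cells with high glycolysis, had 71.0 and 71.8 TPM. Slc16a1 held 51.8% ± 0.357 of the pair on TPM and 70.0% on expected counts, which follow transcript length. Slc16a7, a carrier of higher affinity, had 10.7 and 10.8 TPM. Slc16a3 was transcribed from a pair of starts: models near 120949053 on chromosome 11, led by Slc16a3-202, held 66.6% ± 3.61, and Slc16a3-201, from 120948480, held 30.7% ± 3.96. Bsg, the chaperone that brings both carriers to the membrane, had 814 and 827 TPM and was the highest gene of the wider pathway list.

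Of the 51 further genes of that list, 36 stood at 1 TPM or more in both libraries, 25 at 10 TPM or more and 5 at 100 TPM or more. Over all Ensembl genes those levels were reached by 27.9%, 13.6% and 2.12%, and over protein-coding genes by 52.2%, 26.4% and 3.98%. Mpc2 and Mpc1, which form the carrier of pyruvate into mitochondria, had 280 and 257 TPM and 153 and 147 TPM. Pdhb, a subunit of pyruvate dehydrogenase, had 90.8 and 87.1 TPM. The transcription factors Srebf1 and Myc, which can raise expression of glycolytic genes, had 38.5 and 46.1 TPM and 41.7 and 41.2 TPM. The germ-cell forms were near 0: Gapdhs had 0.120 and 0.0500 TPM and Ldhc 0.220 and 0.120 TPM. Pgk2 had 0 expected counts in both libraries, and 3 counts was taken as the limit that this allows.

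Hypoxia-inducible factors bind ACGTG or GCGTG and are known to raise many glycolytic genes. RefSeq promoter windows, 250 bases before to 50 after a start, were found for 32 of the 34 genes; Slc2a3 and Slc2a4 had none. Of their 50 windows, 70% held such a core on either strand, against 43.8% of all 32851 windows. An excess was not particular to this core. CACCC was in 72% of the same windows, against 57.5% of all, and the GATA letters in 28% against 18.6%. The core was found for 25 of the 32 genes, among them Ldha, Slc2a1, Pgk1, Aldoa and Eno1, but not in either Pklr window. A share per gene over all genes was not computed.

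The leading transcript was mostly the same in both libraries. Of the 22 genes at 10 TPM or more with several transcripts, 20 had the same leading transcript by TPM in both libraries, the exceptions being Pklr and Khk. The median leading share was 86.2%, with 10 genes at 90% or more. The same counts over all genes were not computed, so these describe the list only. By TPM the leading share was under 50% in 4 of the 22 genes, Hk1, Pklr, Slc16a3 and Khk. On expected counts the leading transcript of each held over 50%, with Hk1-202 at 62.3% of Hk1 and Khk-201 at 60.0% of Khk. Aldoc, at 68.1% ± 5.63 from Aldoc-202, drew 16.1% ± 1.58 from the upstream Aldoc-201 and 14.6% from Aldoc-206, which held 5.50% of the expected counts.

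The libraries were close for most of the list. For 24 genes the deposited intervals overlapped. For 10 they did not, all higher in replicate 2, against 20.6%, in either direction, of the 16258 genes that averaged at least 10 expected counts. That background was not divided by direction. The ratio of replicate 2 over replicate 1, as log2 of TPM + 1, was centred on the median of genes with at least 100 counts. It had a median of 0.06 over the 34 genes and of 0.01 over all genes tested. Past 1.5-fold were 2 of the 34, both higher in replicate 2, against 1.89% of all genes tested, or 1.46% in that direction and 0.437% in the other. They were Pgam2, at 212 and 450 expected counts, with a log2 ratio of 0.86, or 1.82-fold, and Eno3, at 544 and 1132 counts, with a log2 ratio of 0.84, or 1.79-fold. No other gene of the list passed 0.33 in size, the value of Aldoc.

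Pgam2 and Eno3 encode the muscle forms of consecutive enzymes, and other muscle transcripts moved with them. The 8 skeletal muscle markers summed to 219 TPM in replicate 1 and 471 TPM in replicate 2, 2.15 times as much. Past 1.5-fold and higher in replicate 2 were 6 of the 8, among them Ckm, at 19.3 and 44.6 TPM, and Acta1, at 76.0 and 182 TPM, and none was at 0. Markers of the pancreas were likewise higher in replicate 2 past 1.5-fold for 3 of 4, with a sum of 14.5 TPM in replicate 1 and 49.9 TPM in replicate 2 and Ins2 at 0.900 and 18.9 TPM. Of 4 stomach and gut markers, which summed to 132 and 176 TPM, Lgals4 was past 1.5-fold, at 5.43 and 19.5 TPM. In the wider pathway list, Fbp2, the muscle fructose bisphosphatase, at 0.290 and 2.89 TPM, and Slc5a1, the glucose carrier of gut and kidney, at 0.010 and 0.650 TPM, were the genes past 1.5-fold. The part of other tissues in these differences was not tested. Hepatocyte, erythroid, neutrophil, macrophage, endothelial and megakaryocyte lists had no gene past 1.5-fold. On scaling to the spike-in RNA, which took 3.96% of TPM in replicate 1 and 5.08% in replicate 2, no gene of the list passed 1.5-fold, while 648 of all genes did. That scaling divides the TPM of every gene in replicate 2 by the spike-in ratio of 1.28, or 0.36 on the log2 scale.

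**Figure D4:**
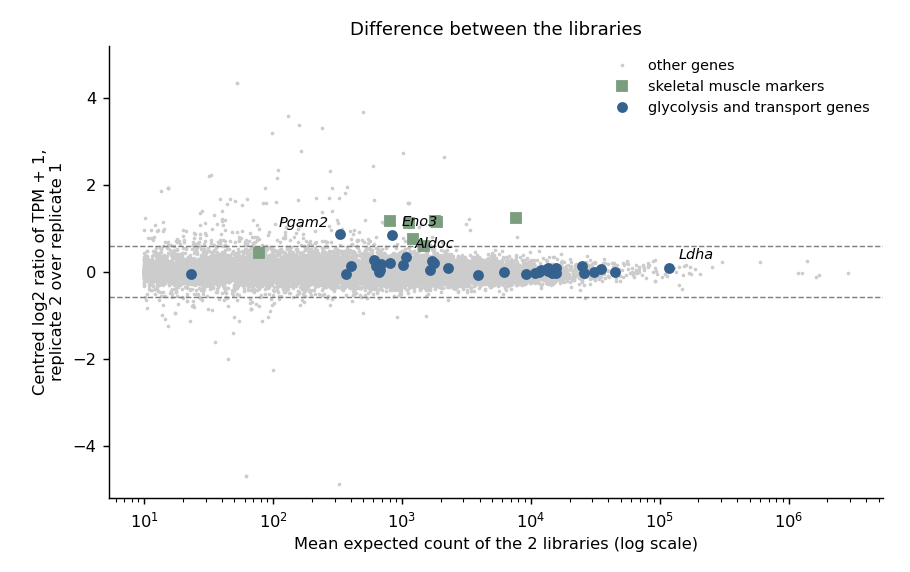
Centred log2 ratio of TPM + 1, replicate 2 over replicate 1, against the mean expected count of both libraries on a log axis. Grey dots are all genes tested, circles the 34 genes and squares the 8 skeletal muscle markers, with dashed lines at 1.5-fold. Pgam2 and Eno3, at 0.86 and 0.84, lie above the upper line with 6 of the muscle markers, and the other 32 genes lie between the dashed lines.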

How the data were processed

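Total RNA was extracted with mirVana and libraries were made from 10 ng with a SMARTer ultra-low input kit, per the labels' protocols. The authors deposited a gene and a transcript table for each library, quantified on mm10 with GENCODE M4, per the text deposited beside the tables. The columns carry the names RSEM uses, per the file headers; its version and the aligner are not given in the sources used. The deposited expected counts are estimated, since reads shared between transcripts are divided. For 23 of the 34 genes they lay within 0.01 of a whole number in both libraries. The deposited TPM values are scaled over all rows, spike-ins included. The deposited TPM intervals, read as a signal with no stated level, were compared mainly between libraries, and some did not hold the TPM itself. The deposited FPKM and percent columns entered no result. The lengths are the authors' values.

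Names, biotypes, starts and coordinates came from GENCODE M21, on the same build, matched by ID without version; 227 of the 230 transcripts matched. Starts within 100 nt were joined. Shares, ratios and SD were computed from TPM. Near-identical copies were sought with blastn 2.17.0, at 90% identity over 80% of the shorter transcript. All Ensembl genes entered the replicate ratio, which was also run on simulated counts with planted changes. That run used a fixed spread not taken from these libraries, so it does not test the 1.5-fold rule on them. Alternatives used edgeR 4.0.16 and DESeq2 1.42.0 factors on rounded counts (R 4.3.3); other steps used python 3.11.15. With 1 group there is no p-value. Further pathway genes named are the highest relative added to the sum of each step and the 5 highest pyruvate and regulator genes. Adpgk, at 19.6 and 25.9 TPM, entered no such sum. Other genes were named after their values were seen. The genes and lists were chosen with earlier results of these data known. Some genes of the wider pathway list are not reported here and entered none of the sums and counts of that list.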

Additional observations from a re-analysis of the deposited data

How the results depend on the processing

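On expected counts the leading shares became 89.5% for Hk1, 78.8% for Pfkl, 92.7% for Aldoa, 98.7% for Pgam1, 99.4% for Ldha and 70.0% for Slc16a1, the upstream Pklr share became 51.4%, and Pfkfb1 fell behind Pfkfb3 at 30.3%, since counts are not corrected for length. With further relatives in the sum the shares were 79.1% for Hk1, 78.8% for Slc2a1 and 48.3% for Slc16a1; that sum was not run for Aldoa. On protein-coding transcripts alone, an alternative chosen after seeing the data for all but Pklr, they were 91.9% for Hk1, 48.6% for Pfkfb1, 94.6% for Aldoa, 63.2% for Pkm, 82.2% for Slc2a1, 52.5% for Slc16a1 and 50.2% for the upstream Pklr start, and the median level was 28.2 TPM. Rescaling over nuclear genes outside the globins gave a median of 53.6 TPM. Spike-in scaling divides every TPM of replicate 2 by 1.28 and left 0 genes of the list past 1.5-fold, with 648 of all genes. The other 7 settings kept the count at 2, Pgam2 and Eno3, while the count over all genes ran from 89 with a pseudocount of 5 to 1361 with one of 0.1 and 1708 with DESeq2 size factors, against 308 as reported. Joining starts within 500 nt merges both Pklr starts and gives no value. Of all settings run on the main results, 62 left them within the spread, or counts within 1.5 times, 20 moved them and 1 changed the leading gene. The 62 include settings that left out 1 library. These could not move a share or the median, because with n = 2 each library lies within 1 SD of the mean. No paired analysis was possible because the labels give 1 group. Depth limits Eno2, at under 50 expected counts in each library.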
